A study of Mus musculus with 5 samples.

Results

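A set of 10 mouse genes of the glucocorticoid response and of metal binding were followed through the kidney RNA-seq libraries of this study: Nr3c1, Hsd11b1, Fkbp5, Tsc22d3, Sgk1, Zbtb16, Klf9, Klf15, Mt1 and Mt2. They were found by gene name, and all 10 were present among the 35478 genes listed. The kidneys came from male mice that had undergone unilateral ischemia-reperfusion injury (UIRI). The mice were of a mixed C57BL/6J;129 background, although the sample titles say C57BL/6J. They were aged 7 to 8 weeks when taken into the injury model. The left renal pedicle was clamped for 35 minutes on a metal bath held at 38.5 °C. The right kidney was taken out on day 10, and the animals were killed 24 hours afterwards, on day 11. Sex, age, the floxed exon and the tissue layer (cortex) come from the paper's methods. The 2 control mice (PRDM16flox/flox, mice 1 and 3) carried loxP sites around exon 9 of Prdm16 and no Cre. The 3 knockout mice (Ksp-Cre/PRDM16 flox/flox, mice 1, 2 and 3) also carried Cre under the Ksp-cadherin promoter, which is active in tubular epithelium, so Prdm16 in other kidney cells was not targeted. The groups are called flox and Ksp-Cre below. There was no uninjured kidney in the comparison, so it asks how the genotypes differed after injury.

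Glucocorticoids enter cells freely and bind the glucocorticoid receptor, which Nr3c1 encodes. The enzyme made from Hsd11b1 regenerates active hormone inside the cell. The bound receptor moves to the nucleus and switches on genes at palindromic DNA sites called glucocorticoid response elements, among them Fkbp5, Tsc22d3, Sgk1, Zbtb16, Klf9 and Klf15. Metallothioneins are small cysteine-rich proteins that hold zinc, copper and cadmium. Mt1 and Mt2 are induced by zinc through the factor MTF1 at metal response elements, and also by glucocorticoids, hypoxia and oxidative stress.

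Mt1 and Mt2 lie side by side, so their sequences are shown first. In the deposited coordinates Mt2 occupied chr8:94899246-94900195 and Mt1 chr8:94905214-94906955, both on the plus strand and 5018 bases apart. Each encodes 61 residues in GENCODE annotation of GRCm38, and 20 of the 61 codons of either gene encode cysteine, or 32.8%. The coding sequences are 79.6% identical, with 38 differing bases among 186, which are in capitals here.
Mt1: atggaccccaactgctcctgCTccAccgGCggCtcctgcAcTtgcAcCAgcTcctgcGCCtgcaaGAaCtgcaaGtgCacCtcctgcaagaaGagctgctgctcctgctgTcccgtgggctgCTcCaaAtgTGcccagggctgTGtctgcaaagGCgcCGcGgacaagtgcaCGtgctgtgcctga
Mt2: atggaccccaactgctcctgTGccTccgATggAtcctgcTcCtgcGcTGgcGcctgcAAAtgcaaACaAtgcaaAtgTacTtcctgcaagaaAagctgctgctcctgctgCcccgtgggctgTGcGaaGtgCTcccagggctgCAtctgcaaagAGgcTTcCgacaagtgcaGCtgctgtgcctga
The longest exact stretch shared by any of their annotated transcripts was 20 bases, far shorter than the 150-base reads, so reads of the pair can be told apart.

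The promoter windows of both genes, taken from RefSeq on GRCm38.p6 (300 bases that run from upstream of the annotated start site to just past it), are shown because they carry the metal response element core. The core was searched as TGCACNC and TGCGCNC on both strands, and the matches are in capitals. The Mt1 window is chr8:94178839-94179138 and the Mt2 window is chr8:94172368-94172667, both on the plus strand.
Mt1: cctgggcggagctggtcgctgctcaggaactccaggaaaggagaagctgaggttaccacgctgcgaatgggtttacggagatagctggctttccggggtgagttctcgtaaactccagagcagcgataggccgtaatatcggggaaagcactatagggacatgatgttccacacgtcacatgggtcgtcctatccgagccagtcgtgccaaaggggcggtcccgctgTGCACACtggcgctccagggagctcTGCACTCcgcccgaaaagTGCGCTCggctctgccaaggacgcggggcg
Mt2: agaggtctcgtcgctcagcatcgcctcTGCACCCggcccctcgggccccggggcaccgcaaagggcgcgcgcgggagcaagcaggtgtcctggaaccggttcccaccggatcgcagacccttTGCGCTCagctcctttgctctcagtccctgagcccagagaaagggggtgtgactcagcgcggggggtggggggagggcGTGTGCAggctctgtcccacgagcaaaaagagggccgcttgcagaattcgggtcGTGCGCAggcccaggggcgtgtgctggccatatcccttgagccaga
The Mt1 window held 3 cores and the Mt2 window 4. Of all 32851 windows of this length in the table, 1.97% held at least 3 cores and 0.517% at least 4. Among the other members with a window, Hsd11b1, Klf15 and the sixth of the Sgk1 windows held 1 core each. Of all windows, 25.7% held at least 1.

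The glucocorticoid response element was searched as the full palindrome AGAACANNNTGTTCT, which reads the same on both strands. It occurred in 3 of the 32851 windows, or 0.00913%, and 1 of those belonged to Sgk1, the kinase gene best known for sodium transport in the distal nephron. The window is the fifth of 6 for Sgk1, chr10:21993640-21993939 on the plus strand of GRCm38.p6, and the match is in capitals.
Sgk1: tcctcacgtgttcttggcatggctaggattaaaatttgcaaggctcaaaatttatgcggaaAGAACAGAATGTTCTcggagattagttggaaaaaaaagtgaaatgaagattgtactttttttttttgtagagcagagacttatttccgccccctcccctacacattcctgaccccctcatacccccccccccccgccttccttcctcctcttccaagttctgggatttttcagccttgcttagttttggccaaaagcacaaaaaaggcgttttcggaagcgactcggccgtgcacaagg
The single arm AGAACA alone was present in 19.0% of windows and in windows of Tsc22d3 and Sgk1. The windows of Hsd11b1, Fkbp5, Klf9, Klf15, Mt1 and Mt2 held neither the arm nor the palindrome. This says only that these letters were not found close to the annotated start.

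The libraries held 14939040 to 16425161 counts, and the members had between 138 and 5998 counts in a library. Counts are given as CPM, counts per 1000000 after trimmed-mean (TMM) scaling. Levels of different genes are compared as the deposited TPM, which has no TMM scaling. It divides counts by all merged exon bases of a gene, which can exceed the length of a single transcript. Prdm16 itself had 25.3 and 20.02 CPM in the flox libraries and 17.1, 16.95 and 17.99 CPM in the Ksp-Cre libraries, a log2 fold change of -0.38 (SE 0.15, edgeR adjusted p = 0.259). These counts include transcript outside the floxed exon and Prdm16 of cells without Cre. The library of Ksp-Cre mouse 3 stood apart: its log2 CPM over all genes correlated at 0.943 to 0.960 with the other libraries, which correlated with each other at 0.970 to 0.991. Kidney tubule markers were abundant. The summed level of 10 proximal tubule markers was 8443 and 8239 CPM in flox and 3128, 3527 and 1863 CPM in Ksp-Cre, with mouse 3 lowest for 9 of the 10. In whole cortex, fewer cells of a type and less RNA per cell cannot be told apart. Fold changes below are given with mouse 3 and, for a named gene whose call or direction changed, also without it.

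Across all 5 libraries none of the 10 members differed between the genotypes at an adjusted p under 0.05 (edgeR quasi-likelihood test, adjusted over 16394 genes). The share of all genes called was 0.104% in the higher direction and 0.872% in the lower direction. At an unadjusted p under 0.05, Zbtb16 alone was higher and no member was lower, against 7.64% and 11.2% of all genes. DESeq2 and limma also called 0 members. Fold changes of the members ran from -0.58 for Klf15 to 2.41 for Zbtb16 on the log2 scale, with a median of 0.23 beside 0.04 for all genes tested. Within the Ksp-Cre group the median SD of log2 CPM over its 3 mice was 0.80 for the members and 0.23 for all genes. It was 0.66 for other glucocorticoid-induced genes, 0.87 for distal convoluted tubule markers and 1.08 for red blood cell markers, so a wide spread was not particular to the members.

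**Figure D1:**
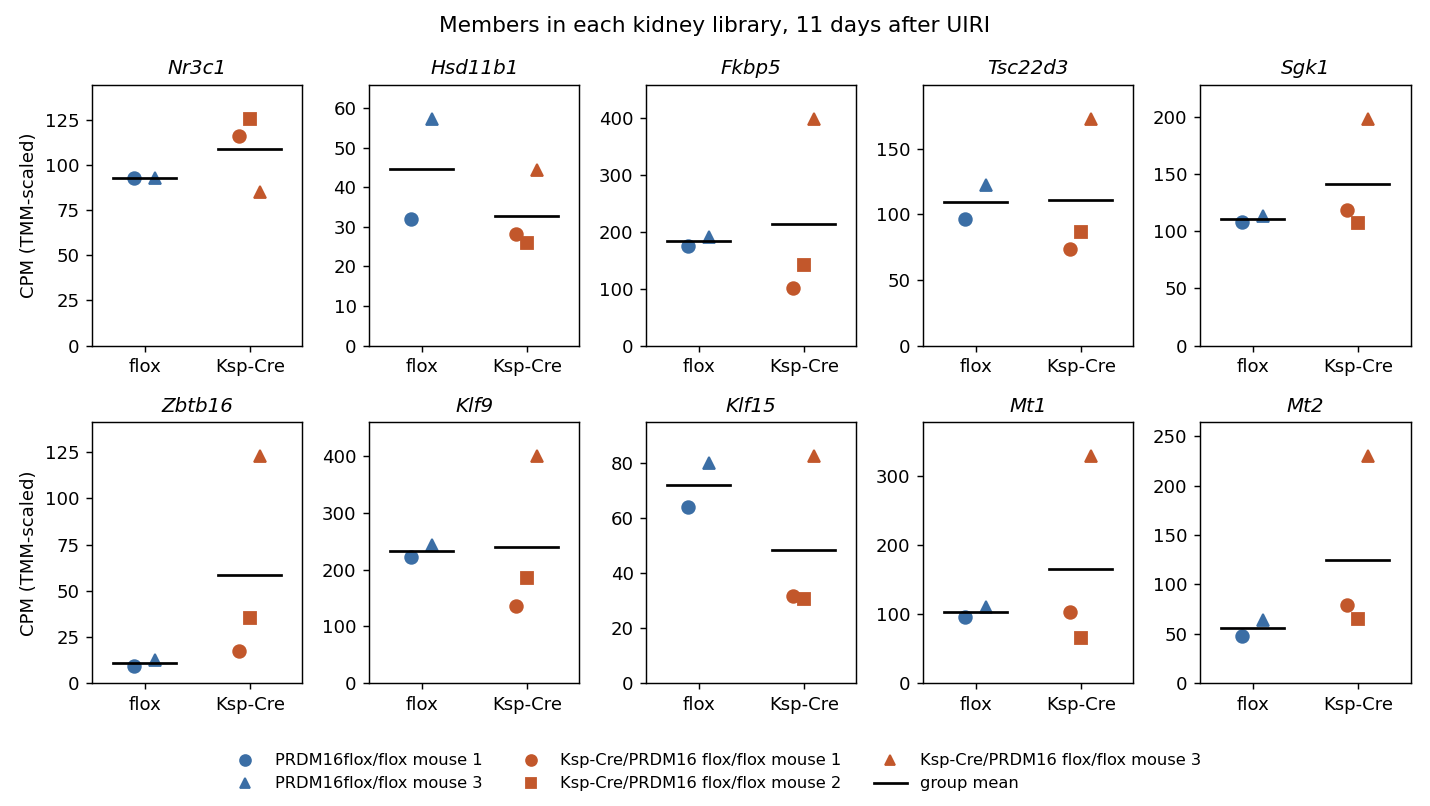
CPM after TMM scaling (vertical axes, each from 0) of the 10 members in the 2 flox (blue) and 3 Ksp-Cre (orange) kidney libraries, where marker shapes give the mouse number and lines the group means. Ksp-Cre mouse 3 (orange triangle) is the highest of the 5 libraries for 8 of the 10 genes, and Nr3c1 is the member for which it is lowest.

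Nr3c1, the receptor gene (chr18:39543598-39652485, minus strand), had 92.8 and 92.9 CPM in flox and 116, 125 and 84.95 CPM in Ksp-Cre. Ksp-Cre mice 1 and 2 lay above both controls and mouse 3 below them, so the groups overlapped. Its log2 fold change was 0.23 (SE 0.18, edgeR adjusted p = 0.539). Without mouse 3 it was 0.38 (SE 0.10, edgeR adjusted p = 0.027), and the gene was then called higher. At 22.1 to 38.4 TPM, Nr3c1 was expressed in all 5 kidneys.

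Hsd11b1 (chr1:192903948-192946353, minus strand) had 31.9 and 57.3 CPM in flox and 28.2, 26.0 and 44.2 CPM in Ksp-Cre. The controls themselves were far apart, and mouse 3 lay between them. The log2 fold change was -0.44 (SE 0.32, edgeR adjusted p = 0.505), and it was -0.71 without mouse 3 (adjusted p = 0.065). Hsd11b2, whose product inactivates glucocorticoid in the distal nephron and so protects the mineralocorticoid receptor, had 277 and 229 CPM in flox and 197, 147 and 94.7 CPM in Ksp-Cre, with no overlap (log2 fold change -0.79, SE 0.30, edgeR adjusted p = 0.233). Of all genes, 21.3% were separated in that direction. Without mouse 3 the log2 fold change of Hsd11b2 was -0.55 (edgeR adjusted p = 0.045), and it was called lower. Expressed as a ratio of TPM, Hsd11b2 over Hsd11b1 was 7.76 and 3.58 in flox and 6.26, 5.03 and 1.91 in Ksp-Cre. The inactivating enzyme was thus the more abundant transcript in every kidney, and by the least in mouse 3. The 4 distal convoluted tubule markers summed to 1897 and 1172 CPM in flox and 1098, 710 and 327 CPM in Ksp-Cre. The 4 principal cell markers summed to 317 and 269 CPM in flox and 284, 140 and 237 CPM in Ksp-Cre. The 4 intercalated cell markers summed to 240 and 183 CPM in flox and 139, 102 and 103 CPM in Ksp-Cre. The part of these cells in the Hsd11b2 values was not tested.

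Fkbp5 (chr17:28617727-28705123, minus strand) encodes a co-chaperone that lowers the hormone affinity of the receptor and is one of its most responsive targets. It had 175 and 191 CPM in flox and 102, 142 and 399 CPM in Ksp-Cre. Mice 1 and 2 lay below both controls, while mouse 3 was 2.18-fold above the flox mean and 3.27-fold above the mean of mice 1 and 2. The 5-library log2 fold change of 0.22 (SE 0.56, edgeR adjusted p = 0.861) reversed to -0.59 without mouse 3 (SE 0.15, adjusted p = 0.030). Fkbp4, the related co-chaperone that favours receptor transport, went the other way in mouse 3, with 258 and 259 CPM in flox and 231, 194 and 126 CPM in Ksp-Cre. The TPM ratio of Fkbp5 to Fkbp4 was 0.384 and 0.417 in flox and 0.249, 0.415 and 1.80 in Ksp-Cre, so Fkbp5 exceeded Fkbp4 only in mouse 3 of these 5 libraries.

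Tsc22d3 (chrX:139440277-139501271, minus strand) encodes GILZ, an anti-inflammatory leucine zipper protein. It had 96.7 and 122 CPM in flox and 73.9, 86.5 and 173 CPM in Ksp-Cre, with the lowest and the highest value both in knockout mice. The log2 fold change was 0.02 (SE 0.37, edgeR adjusted p = 0.983) and -0.44 without mouse 3 (SE 0.13, adjusted p = 0.049). Sgk1 (chr10:21758083-21875802, plus strand), whose promoter palindrome is printed above, had 108 and 114 CPM in flox and 118, 107 and 198 CPM in Ksp-Cre. Its values other than mouse 3 lay between 107 and 118 CPM, and the log2 fold change of 0.35 (SE 0.28, edgeR adjusted p = 0.533) became 0.03 without mouse 3.

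Zbtb16 (chr9:48563097-48747525, minus strand) encodes PLZF, a zinc finger repressor that glucocorticoids induce strongly in many cell types. It had 9.30 and 12.6 CPM in flox and 17.1, 35.0 and 123 CPM in Ksp-Cre. All 3 knockout libraries lay above both controls, with mouse 3 at 11.2-fold the flox mean. The log2 fold change was 2.41 (SE 0.86, edgeR adjusted p = 0.213, with an unadjusted edgeR quasi-likelihood p of 0.0298). Without mouse 3 it was 1.26 (SE 0.31, adjusted p = 0.025), about 1 log2 unit smaller but called. Zbtb16 and Mt2 were the 2 members whose groups did not overlap, both higher in Ksp-Cre, and 20.3% of all genes were separated in that direction. None of the members was separated in the lower direction, as 21.3% of all genes were.

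Klf9 and Klf15 encode Krüppel-like transcription factors that the receptor induces directly. KLF15 is known for control of amino acid and glucose metabolism and for podocyte protection. Klf9 (chr19:23118590-23145493, plus strand) had 223 and 244 CPM in flox and 136, 185 and 399.6 CPM in Ksp-Cre. Its log2 fold change was 0.04 (SE 0.44, edgeR adjusted p = 0.969) and -0.54 without mouse 3 (SE 0.14, adjusted p = 0.034). Klf15 (chr6:90437785-90468785, plus strand) had 63.8 and 79.8 CPM in flox and 31.7, 30.5 and 82.3 CPM in Ksp-Cre. Mice 1 and 2 were below 50% of the flox mean of 71.8 CPM, and mouse 3 was slightly above the higher control. The log2 fold change of -0.58 (SE 0.45, edgeR adjusted p = 0.529) became -1.20 without mouse 3 (SE 0.12, adjusted p = 9.2e-04), the largest decrease among the members in that fit.

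Mt1 had 96.2 and 111 CPM in flox and 103, 65.3 and 329 CPM in Ksp-Cre. Mt2 had 47.3 and 63.5 CPM in flox and 79.5, 64.7 and 229.5 CPM in Ksp-Cre. For Mt1 the first Ksp-Cre mouse lay between the controls and the second below them, whereas for Mt2 both were above the controls. Mouse 3 was 3.18-fold above the flox mean for Mt1 and 4.14-fold for Mt2. The log2 fold change was 0.68 for Mt1 (SE 0.66, edgeR adjusted p = 0.616) and 1.17 for Mt2 (SE 0.57, edgeR adjusted p = 0.334). Without mouse 3 it was -0.29 for Mt1 (adjusted p = 0.334) and 0.39 for Mt2 (adjusted p = 0.120), so the direction held for Mt2 and reversed for Mt1.

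Summed over both genes, metallothionein transcripts stood at 143 and 174 CPM in flox and 183, 130 and 558 CPM in Ksp-Cre. The pair did not keep a fixed ratio: Mt2 over Mt1 in TPM was 1.11 and 1.30 in flox and 1.74, 2.24 and 1.58 in Ksp-Cre, higher in each knockout than in either control. This ratio is a description and was not tested. Its values above 1 rest on lengths of 1258 merged exon bases for Mt1 and 556 for Mt2. Mt1 had the higher CPM of the pair in every library. Mt3 had between 0 and 3 counts in a library. Mt4 had 0 counts in all 5, which allows up to 3 counts a library, or 0.170 to 0.215 CPM, for counting error only. The metallothionein signal of these kidneys therefore came from Mt1 and Mt2.

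**Figure D2:**
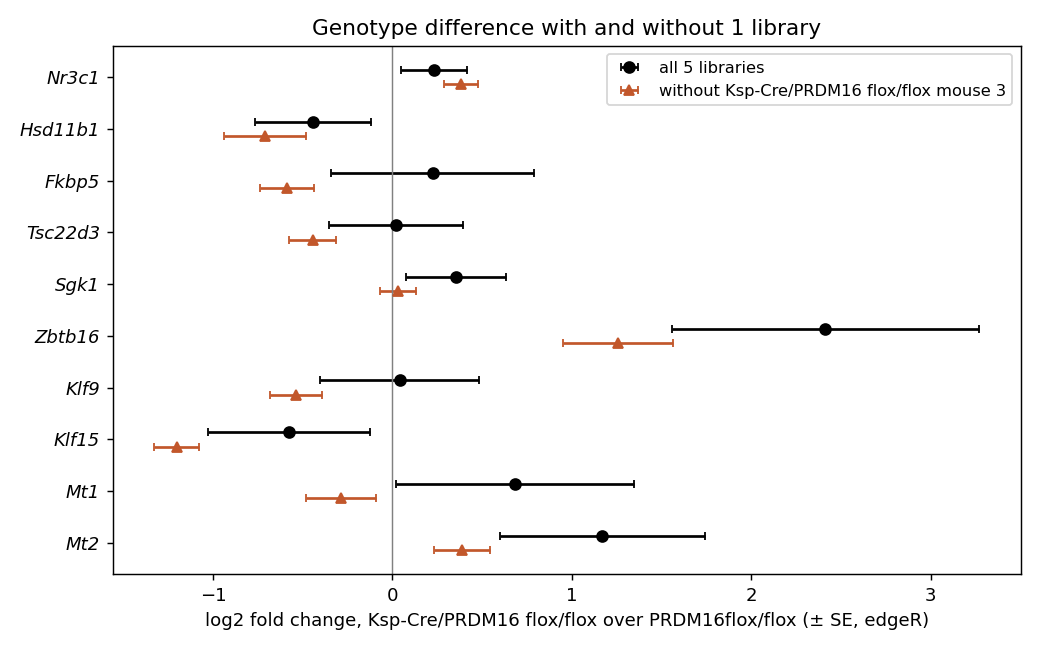
Log2 fold change of Ksp-Cre over flox with its SE (edgeR) for each member, with all 5 libraries (black circles) and without Ksp-Cre mouse 3 (orange triangles). Fkbp5, Tsc22d3, Klf9 and Mt1 cross 0 when the library is left out, and Zbtb16 and Mt2 stay above 0 in both fits.

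In the fit without Ksp-Cre mouse 3, 6 of the 10 members were called. Nr3c1 and Zbtb16 were higher, where 7.82% of all genes were called in that direction, and Fkbp5, Tsc22d3, Klf9 and Klf15 were lower, where 11.0% were. That fit compares 2 mice with 2, and the library was left out after it was seen to stand apart. Of the members, 5 (Hsd11b1, Fkbp5, Tsc22d3, Klf9 and Klf15) had both mice 1 and 2 below both controls, as 30.7% of all genes did, and 3 (Nr3c1, Zbtb16 and Mt2) had both above, as 32.6% did. Of the receptor targets, Fkbp5, Tsc22d3, Klf9 and Klf15 thus lay below the controls in mice 1 and 2, and Zbtb16 lay above. For Sgk1, mouse 1 was above both controls and mouse 2 below both. For Mt1, mouse 1 was between the controls and mouse 2 below both.

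Mouse 3 was the highest of the 5 libraries for 8 of the 10 members, and 32.0% of all genes were highest there. It was the lowest for 1 member, Nr3c1, and a further 32.0% of all genes were lowest there. It exceeded each other library by at least 1 log2 unit for 4 members, Fkbp5, Zbtb16, Mt1 and Mt2, and for 1.95% of all genes. As a difference from the mean of mice 1 and 2, mouse 3 was higher by 2.32 log2 units for Zbtb16, 2.0002 for Mt1, 1.73 for Fkbp5 and 1.68 for Mt2, each at or above percentile 98.8 of all genes. Klf15 (1.40), Klf9 (1.33) and Tsc22d3 (1.11) followed, then Sgk1 (0.82) and Hsd11b1 (0.71), while Nr3c1 had a log2 difference of -0.51, at percentile 19.2 of all genes. The summed level of the members was 944 and 1088 CPM in flox and 806, 868 and 2062 CPM in Ksp-Cre. The members were chosen with earlier results of these libraries known, so these counts describe this mouse and are not an independent test of it.

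**Figure D3:**
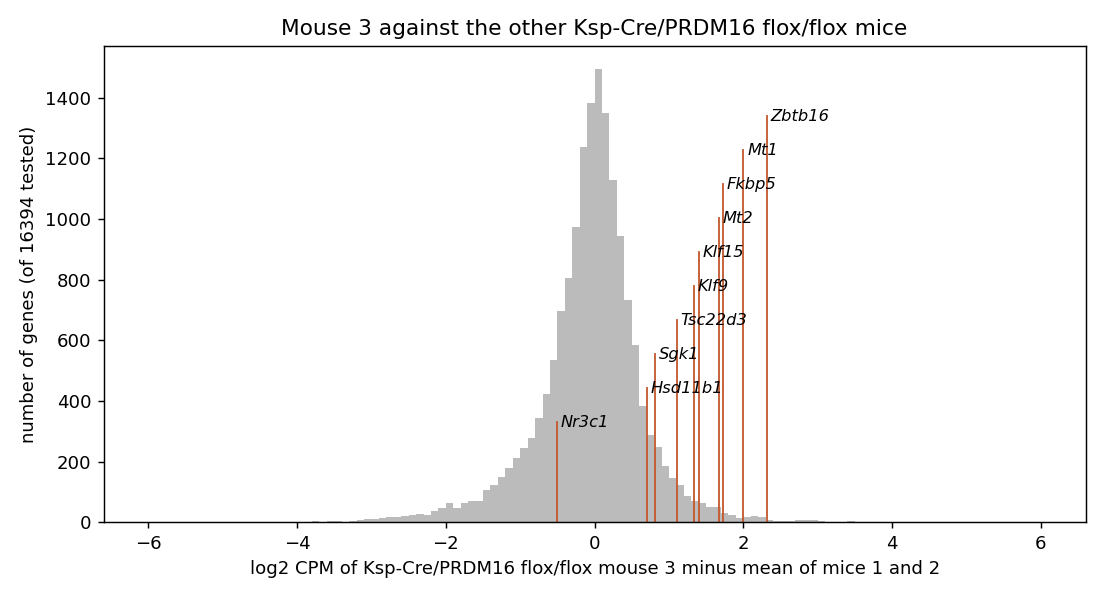
Number of genes (vertical axis, of 16394 tested) by the log2 CPM of Ksp-Cre mouse 3 minus the mean of Ksp-Cre mice 1 and 2 (horizontal axis), where orange lines mark the members. The other members lie to the right of 0, from 0.71 for Hsd11b1 to 2.32 for Zbtb16, and Nr3c1 lies to the left at -0.51.

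Other features of mouse 3 are measured facts beside this pattern, and their part in it was not tested. The 4 thick ascending limb markers summed to 2817 and 3763 CPM in flox and 2625, 2330 and 1236 CPM in Ksp-Cre, with mouse 3 lowest for all 4. The 5 T and NK cell markers were lowest in mouse 3 as well, at a summed 24.2 CPM against 39.7 to 49.4 CPM in the other libraries. Of all genes, 32.0% were lowest there. Macrophage markers summed to 378 and 477 CPM in flox and 585, 535 and 404 CPM in Ksp-Cre. Fibroblast and myofibroblast markers summed to 329 and 469 CPM in flox and 806, 765 and 502 CPM in Ksp-Cre. Both sums were thus lower in mouse 3 than in Ksp-Cre mice 1 and 2, and within or near the control values. Red blood cell markers summed to 6.61 and 10.7 CPM in flox, 147 and 146 CPM in Ksp-Cre mice 1 and 2, and 39.4 CPM in mouse 3. The 8 injured tubule markers summed to 13471 and 14587 CPM in flox and 29141, 30279 and 35888 CPM in Ksp-Cre, so all 3 knockouts were above the controls. Markers of adrenal cortex, the gland that makes corticosteroids, summed to between 8.51 and 12.3 CPM over 8 genes, nearly all of it from Star and Akr1b7. The defining enzymes were at or near 0. Cyp11b2 and Nr5a1 had 0 counts everywhere, and Cyp11b1, Cyp11a1, Cyp21a1 and Hsd3b1 had at most 3 in any library. No hormone level, zinc level or time of day is given for the animals.

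Per merged exon base, Mt2 had the highest level of the members, with a median of 312 TPM and a range of 195 to 987. Mt1 followed at 183 (139 to 625). The order of this pair rests on the length used, 1258 merged exon bases for Mt1 and 556 for Mt2. Their annotated transcripts Mt1-201 and Mt2-201 have 549 and 511 bases. Klf9 (113 TPM, 81.5 to 213) and Fkbp5 (103 TPM, 70.2 to 246) overlapped almost fully, and their order switched between libraries. Sgk1 had a median of 69.1 TPM, Tsc22d3 of 55.2 and Hsd11b1 of 45.7, and the ranges of these 3 neighbours overlapped too. Nr3c1 (24.4 TPM) was below all 7 of them in every library. Klf15 had a median of 15.2 TPM and Zbtb16 of 5.61, but in mice 2 and 3 of the Ksp-Cre group Zbtb16 stood above Klf15, at 11.4 and 35.8 TPM. In TPM, Mt2 ranked above Mt1, and both above every other member, in each of the 5 libraries. In CPM, Mt1 was above Mt2 in each of them.

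**Figure D4:**
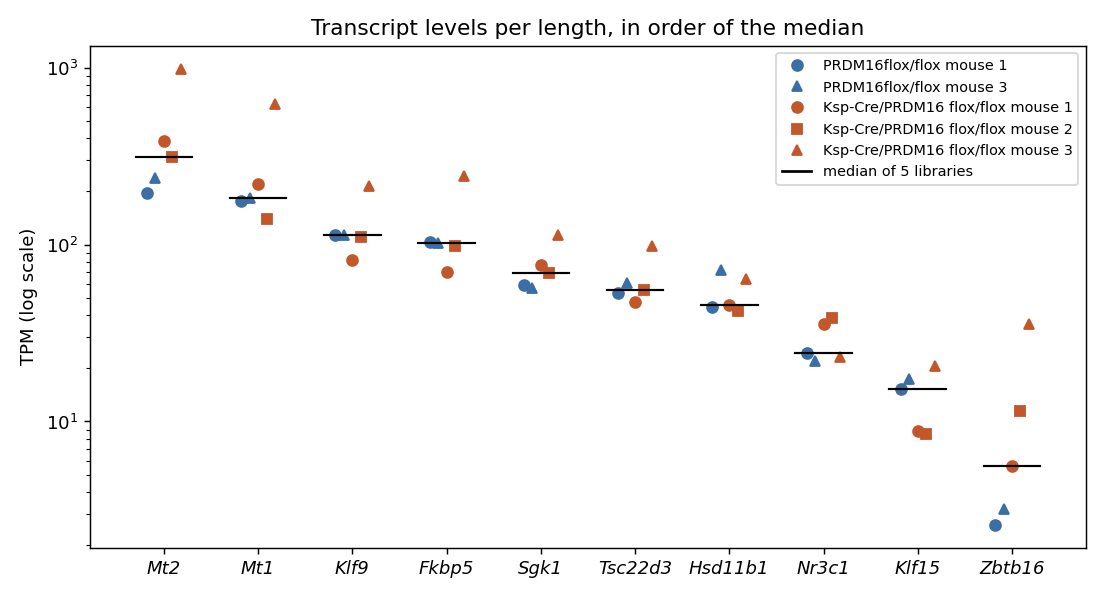
TPM (log scale) of each member in the 5 libraries, ordered by the median (black line), where blue marks flox, orange Ksp-Cre, and shapes the mouse number. Mt2 and Mt1 head the order with medians of 312 and 183 TPM, which rest on merged exon lengths. Zbtb16 has the widest range on this scale, from 2.60 to 35.8 TPM.

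The partners of the receptor were described as a list beside its targets. All 13 genes of a list of corticosteroid receptors, chaperones, coregulators, transporters and steroid enzymes were tested and 0 were called by edgeR, with 1 higher and 1 lower at an unadjusted p under 0.05. DESeq2 also called 0. Every Ksp-Cre library lay above both controls for 2 of the 13 and below for 3, beside 20.3% and 21.3% of all genes. The median log2 fold change of the list was -0.02 and the median SD of log2 CPM in Ksp-Cre was 0.29, beside 0.80 for the members. Nr3c2, the mineralocorticoid receptor of the distal nephron, had 28.4 and 23.8 CPM in flox and 22.8, 19.4 and 12.8 CPM in Ksp-Cre, without overlap (log2 fold change -0.51, edgeR adjusted p = 0.346). The TPM ratio of Nr3c1 to Nr3c2 was accordingly 3.35 and 3.999 in flox and 5.22, 6.62 and 6.81 in Ksp-Cre, a description with no test. H6pd, which supplies the NADPH that the Hsd11b1 enzyme uses, had 260 and 230 CPM in flox and 289, 318 and 414 CPM in Ksp-Cre (log2 fold change 0.47, edgeR adjusted p = 0.259). The drug and steroid exporter genes were low, with log2 fold changes of 0.33 for Abcb1a and 0.68 for Abcb1b that missed the threshold, while Fkbp4 had -0.50. Without mouse 3 the value for Abcb1a reversed to -0.046.

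A second list held 26 other genes known to be induced by glucocorticoids, of which 25 were tested. The one left out was Tat, a liver enzyme gene with at most 1 count in a library. By edgeR 0 were called, with 4 higher and 2 lower at an unadjusted p under 0.05 (7.64% and 11.2% of all genes), whereas DESeq2 called 3, namely Lcn2 higher and Arrdc2 and Cdkn1c lower. Mouse 3 was the highest library for 17 of the 25 and the lowest for 2, each beside 32.0% of all genes, and 6 genes stood at least 1 log2 unit above every other library, beside 1.95%. Every Ksp-Cre library lay above both controls for 4 of the 25 and below for 2, beside 20.3% and 21.3% of all genes. The median difference of mouse 3 from mice 1 and 2 was 1.06 log2 units, beside -0.01 for all genes and 1.37 for the members. The list was assembled with the members' values known and shares their libraries, so it is not independent of them.

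Pdk4, a kinase that shuts pyruvate out of oxidation and is also induced by fasting, had 19.1 and 32.6 CPM in flox and 41.9, 96.4 and 414 CPM in Ksp-Cre (log2 fold change 2.83, SE 1.01, edgeR adjusted p = 0.214). Cdkn1a, the cell cycle inhibitor p21, had 17.4 and 17.7 CPM in flox and 30.3, 32.1 and 173 CPM in Ksp-Cre (log2 fold change 2.16, edgeR adjusted p = 0.256). Lcn2, the injury marker NGAL, had 110 and 94.0 CPM in flox and 272, 204 and 658 CPM in Ksp-Cre (log2 fold change 1.89, edgeR adjusted p = 0.138). Without mouse 3 all 3 were called higher with smaller log2 fold changes, 1.42 for Pdk4 (edgeR adjusted p = 0.029), 0.83 for Cdkn1a (0.0025) and 1.23 for Lcn2 (0.0018). These 3 genes shared the order of Zbtb16, with both other knockouts above the controls and mouse 3 far above them. Each of them also answers to signals other than glucocorticoids, such as fasting, DNA damage or tubular injury.

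At the other end, Arrdc2 had 43.1 and 51.7 CPM in flox and 11.9, 16.5 and 29.3 CPM in Ksp-Cre (log2 fold change -1.31, edgeR adjusted p = 0.138). Pck1, the gluconeogenic enzyme of the proximal tubule, had 5424 and 7357 CPM in flox and 2184, 2754 and 5556 CPM in Ksp-Cre, overlapping through mouse 3 (log2 fold change -0.87, edgeR adjusted p = 0.328). Like Klf15, both had their lowest values in mice 1 and 2 and a higher one in mouse 3. Cdkn1c, the inhibitor p57 and a podocyte gene, had 44.4 and 46.6 CPM in flox and 25.0, 26.2 and 17.5 CPM in Ksp-Cre, lower in all 3 (log2 fold change -0.99, edgeR adjusted p = 0.072). Podocyte markers were lower alongside, at 661 and 505 CPM summed over 4 genes in flox and 367, 375 and 408 CPM in Ksp-Cre, and their part in the Cdkn1c values was not tested. Without mouse 3 these 3 genes were called lower, with log2 fold changes of -1.74 for Arrdc2 (edgeR adjusted p = 6.8e-04), -1.37 for Pck1 (0.0025) and -0.82 for Cdkn1c (0.0018). Over the list, 4 of the 25 genes were then called higher and 5 lower, beside 7.82% and 11.0% of all genes in that fit.

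**Figure D5:**
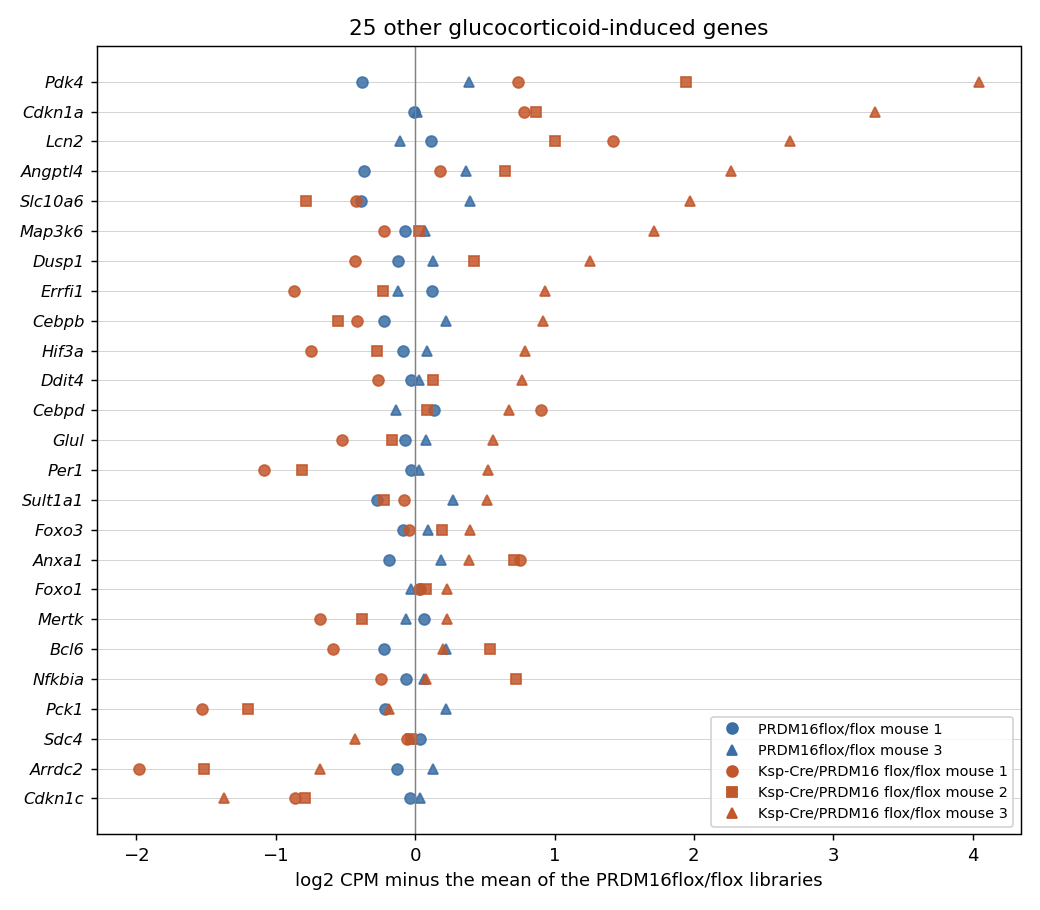
Log2 CPM minus the flox mean (horizontal axis) for the 25 tested genes of the second list, ordered by Ksp-Cre mouse 3, where blue marks flox, orange Ksp-Cre, and shapes the mouse number. Mouse 3 (orange triangles) is the highest library for 17 of the 25, while Arrdc2 and Cdkn1c have all 3 Ksp-Cre libraries below the controls.

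Genes that handle zinc and copper were described as a further list. Of 25 genes 22 were tested, and Mt3, Mt4 and Slc30a10 were too low. Mouse 3 was the highest library for 6 and the lowest for 6, each beside 32.0% of all genes. It exceeded every other library by at least 1 log2 unit for 1 gene, Slc39a14, beside 1.95% of all genes. The median difference of mouse 3 from mice 1 and 2 was -0.01 log2 units, and the median log2 fold change between genotypes was 0.09. Every Ksp-Cre library lay above both controls for 7 of the 22 and below for 5, beside 20.3% and 21.3% of all genes. One gene was called: Ccs, the copper chaperone of superoxide dismutase, fell from 107 and 135 CPM in flox to 62.3, 62.4 and 61.7 CPM in Ksp-Cre (log2 fold change -0.96, SE 0.13, edgeR adjusted p = 0.042). Its 3 knockout values were nearly equal, mouse 3 included, but the call was lost with scaling by library size alone (adjusted p = 0.069), with limma on FPKM (0.064 and 0.072) and on removal of a gene length trend (0.071). Leaving out flox mouse 1 or 3 or Ksp-Cre mouse 1 or 2 also ended it, with adjusted p between 0.134 and 0.496, and DESeq2 kept it. Mtf1, the metal-sensing activator of Mt1 and Mt2, had 22.3 and 18.01 CPM in flox and 25.5, 26.9 and 25.1 CPM in Ksp-Cre (log2 fold change 0.36, edgeR adjusted p = 0.265). Slc30a1, the zinc exporter that MTF1 also induces, had 69.8 and 65.3 CPM in flox and 84.1, 84.1 and 77.0 CPM in Ksp-Cre (log2 fold change 0.27, edgeR adjusted p = 0.257), so mouse 3 was not its highest library. Without mouse 3 the log2 fold change of Slc30a1 was 0.32 and it was called (edgeR adjusted p = 0.049). Mtf1 and Slc30a1 were chosen for mention after their values were seen.

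The remaining zinc transporters at the ends of the list were modest in size. Slc39a6 had a log2 fold change of 0.56 (edgeR adjusted p = 0.118), Slc30a4 of 0.51 (0.228) and Slc30a7 of 0.48 (0.122). Each was higher in all 3 knockouts than in either control, as 20.3% of all genes were. Without mouse 3, Slc39a6 (0.52, edgeR adjusted p = 0.026) and Slc30a7 (0.40, adjusted p = 0.022) were called higher. Slc39a5, an epithelial zinc importer, had 39.0 and 42.0 CPM in flox and 26.8, 29.9 and 10.5 CPM in Ksp-Cre (log2 fold change -0.85, edgeR adjusted p = 0.327), and was called lower without mouse 3 at -0.51 (adjusted p = 0.016). Slc39a8 had -0.58 (0.357), a value set by flox mouse 3 at 30.4 CPM against 13.9 to 16.7 CPM elsewhere.

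Among 2737 genes whose log2 CPM varied enough over the 5 libraries, the profiles nearest to that of Mt1 belonged to Mss51, Gm39954 and Gm52833, at root mean square distances of 0.15, 0.15 and 0.17 log2 units. Mss51 had 2.49 and 3.01 CPM in flox and 3.18, 2.24 and 9.46 CPM in Ksp-Cre, and the other two were lower still, so their profiles rest on few reads. Near to the profile of Fkbp5 were those of Gm13528 and Slc39a14, at distances of 0.05 and 0.10. Gm13528 had only 1.53 to 6.60 CPM and so rests on few reads too. Slc39a14, a zinc and iron importer of the metal list, had 103 and 113 CPM in flox and 70.6, 94.5 and 239 CPM in Ksp-Cre. The likeness spans 5 points from shared libraries and is dominated by mouse 3.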

How the data were processed

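Kidney cortex RNA of 5 mice was sequenced by the authors as 150-base paired reads on an MGI platform. The deposited tables hold whole-number counts per gene, with TPM and FPKM that the authors derived from them. Per the labels the submitters' processing notes name CASAVA, featureCounts 2.0.1, DESeq2 1.16.1 and build hg38, although the coordinates are those of mouse genes and differ from GRCm38; aligner and strand setting are not given in the sources used here. Positions are printed as deposited. Without a strand setting, reads of antisense genes cannot be separated: the exons of Nr3c1 and Sgk1 share 158 and 86 bases with opposite-strand genes, which had 1 and 0 counts in flox mouse 1. Broken records, 5 a library, were rejoined.

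Counts were tested with edgeR 4.0.16 (R 4.3.3; filterByExpr, TMM scaling, quasi-likelihood, genotype only), after a check of the code on simulated counts, with Benjamini-Hochberg adjustment over 16394 genes and a threshold of 0.05. The alternatives were DESeq2 1.42.0, other filters and scalings, limma 3.58.1 on FPKM in log2 form (pseudocount 1 or 0.1, keeping genes that reached an FPKM of 1 in 2 or more libraries), a loess trend on gene length (span 0.3), each mouse left out, and the mouse number as a block. No library pair agreed within counting noise. P-values measure the spread between 1 library a mouse.

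Named genes were the 10 members in full and, from 3 lists (receptor machinery, other induced genes, metal handling), genes past the threshold and the 3 largest and 3 smallest log2 fold changes; for likeness, the 3 profiles nearest to Mt1 and to Fkbp5 among genes with a root mean square of at least 0.5. The members and lists were chosen with earlier results of these data known. Promoters came from RefSeq (GRCm38.p6), where 8 of the members had windows, and coding sequences from GENCODE (GRCm38). No sequence of Nr3c1 is shown. A gene that the likeness rule names is not reported here.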

Additional observations from a re-analysis of the deposited data

How the results depend on the processing

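No member was called in any setting that kept all 5 libraries, and 79 of 80 member fold changes kept their direction across 8 such settings. The exception was Klf9, at -0.00021 with limma on log2(FPKM + 0.1). The number of genes called was 160 and became 1210 with DESeq2, 471 without a filter beyond 1 count, 51 with library size scaling, 69 and 49 with limma on log2(FPKM + 1) and log2(FPKM + 0.1), and 33 with the gene length trend removed. Of the other induced genes DESeq2 called 3, and of the metal genes library size scaling called 0. Calls per list were not counted in the remaining settings with all 5 libraries. Among these, edgeR without a filter beyond 1 count called Cdkn1c lower (edgeR adjusted p = 0.042).

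Leaving out 1 mouse gave 0 to 3053 genes and 0 to 6 members called, the upper value of each without Ksp-Cre mouse 3, and for the lists 0 to 1 receptor machinery gene, 0 to 9 other induced genes and 0 to 7 metal genes. Where this left 1 flox library, it was assumed to vary like the Ksp-Cre group. Log2 fold changes then ran from -0.81 to 0.038 for Hsd11b1, -0.59 to 0.56 for Fkbp5, -0.44 to 0.24 for Tsc22d3, -0.54 to 0.32 for Klf9, -0.29 to 1.06 for Mt1, -0.046 to 0.58 for Abcb1a and -1.01 to 0.022 for Slc39a8. Of these fits, the Ccs call was kept only in that without Ksp-Cre mouse 3. The causes were not tested.

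Whether the shared mouse numbers pair the samples could not be decided. The correlation of deviations from the group mean was 0.001 and -0.022 for the 2 pairs. With 2 flox libraries these deviations mirror each other, and those of Ksp-Cre depend strongly on mouse 3. With the replicate block 0 genes were called, 2061 at an unadjusted p under 0.05, and all 10 members kept their direction. Only Ksp-Cre had a mouse 2, so its library added nothing to the genotype estimate of that fit, which is a weak check. Depth limited Tat, Mt3, Mt4 and Slc30a10, at 3 counts or fewer a library, and no member, as the lowest member count was 138.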
